A study of Homo sapiens with 12 samples.

Results

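The 9 genes described here mark where a melanoma cell stands between the melanocyte lineage and the dedifferentiated, invasive state: 7 lineage genes (APOE, BIRC7, CAPN3, CITED1, DCT, EDNRB and ERBB3) and 2 receptor kinases of the dedifferentiated state (AXL and EGFR). They were taken by symbol from the 4918 genes analysed here, whose symbols run from A1BG to FAM46B, and all 9 were present. RNA came from A375, an established human melanoma cell line grown in culture, in 12 samples of 4 groups. Cells were left untreated (Control), or were exposed for 24 h to SB-3CT, a small-molecule inhibitor of the gelatinases MMP2 and MMP9, to the cytokine interferon gamma (IFN-γ), or to SB-3CT together with IFN-γ (SB-3CT + IFN-γ), with 3 samples per group. Nothing in the labels says that the 3 samples were separate cultures, and the study states only in general that its experiments were independently repeated, so the p-values measure the spread between these samples, which may be technical. All samples come from a single line, and the labels also speak of 3 portions of cells although there are 4 groups.

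Melanocytes are pigment cells, and their identity is held by the transcription factor MITF, which switches on genes of melanin synthesis, survival and growth factor signalling. Melanoma cells can lose this program and gain receptor kinases such as AXL and EGFR, a change known as dedifferentiation or phenotype switching, and inflammatory cytokines are known to promote it. Among the lineage genes, ERBB3 encodes a neuregulin receptor that signals with ERBB2, EDNRB the endothelin receptor of melanoblasts, DCT the melanin-synthesis enzyme dopachrome tautomerase, CITED1 a transcriptional co-regulator, CAPN3 a calcium-dependent protease, BIRC7 the apoptosis inhibitor livin and APOE a lipid-carrying apolipoprotein. MITF itself lies outside the range of symbols and was not analysed here.

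RefSeq promoters (GRCh38.p14) were at hand for 8 of the 9 members, 18 promoters in all; ERBB3 was not among them. Each was placed at a single position of GRCh37 (hg19) by exact match, and the 250 bases before the start site were searched on both strands for the core E-box read by MITF (CATGTG, in 9.41% of 35093 promoters of the same length), the palindromic E-box (CACGTG, 6.34%) and the AP-1 motif (TGANTCA, 6.57%). The main promoters of DCT and AXL are printed as examples of a lineage enzyme and a receptor kinase, 5′ to 3′ on the strand of the gene and ending at the base before the annotated start, with matched letters in capitals. They lie at chr13:95131937-95132186 (DCT, minus strand) and chr19:41724878-41725127 (AXL, plus strand).
DCT: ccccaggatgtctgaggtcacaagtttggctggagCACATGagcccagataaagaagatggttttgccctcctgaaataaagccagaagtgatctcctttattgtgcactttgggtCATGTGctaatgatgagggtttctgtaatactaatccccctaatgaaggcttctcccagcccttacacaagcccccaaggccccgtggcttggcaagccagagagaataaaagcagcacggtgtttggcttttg
AXL: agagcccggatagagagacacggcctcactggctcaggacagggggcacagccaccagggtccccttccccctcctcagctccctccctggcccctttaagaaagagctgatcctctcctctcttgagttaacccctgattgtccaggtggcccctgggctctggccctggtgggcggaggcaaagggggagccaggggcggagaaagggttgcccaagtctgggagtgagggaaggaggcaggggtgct

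The DCT promoter held the core E-box at 2 places, starting at positions -215 and -134 from the start site, the first of them on the opposite strand. An alternative CITED1 promoter, 956 bases from the main one, held the core E-box. Of the 8 main starts, those of DCT and BIRC7 held a motif in this window, and those of APOE, CAPN3, CITED1, EDNRB, AXL and EGFR held none. No other APOE or CAPN3 promoter held one either; an alternative AXL promoter, 7532 bases away, held the core E-box and an alternative EGFR promoter held it with 2 AP-1 motifs, whose first overlaps the E-box by 2 bases. The main BIRC7 promoter held both E-box forms, at positions -27 and -92, and an alternative EDNRB promoter held the core E-box. These are matches of letters and not binding sites.

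The members differed widely in level. Values are FPKM, fragments per kilobase of transcript relative to the library's mapped fragments, which can be compared between genes. Averaged over the 12 samples, AXL (46.7 FPKM) and ERBB3 (44.3) lay above 89.9% and 89.3% of the 4918 genes. EDNRB (5.51) and APOE (5.24) were in the middle, EGFR (1.45) and CITED1 (0.957) lower, and DCT (0.154), BIRC7 (0.143) and CAPN3 (0.0883) at the edge of detection. A375 cells thus carried ERBB3 and EDNRB of the lineage set but hardly any DCT, and AXL was about as high as ERBB3. Of the other melanoma markers, CSPG4 lay between 26.3 and 49.0 FPKM and BCAN between 4.05 and 5.52, while the lineage marker ABCB5 was listed at 0 in 9 samples. The remaining marker, BCL2A1, moved with treatment, from 0.463 to 1.02 FPKM without IFN-γ to 6.11 to 9.65 with it. CSPG4 moved too, from 48.0 to 49.0 FPKM in Control to 26.3 to 29.6 with SB-3CT + IFN-γ. Fibroblast markers summed to at most 0.646 FPKM (all 4 in the table, COL1A2 at 0 in 6 samples), keratinocyte markers to at most 1.03 (DSC3 and DSG1 of 4, DSG1 at 0 in 10 samples), immune markers to at most 0.348 (3 of 6) and endothelial markers to at most 0.173 (2 of 4). The keratinocyte sum, nearly all from DSC3, moved with the groups, from 0.799 to 1.03 in Control to 0.320 to 0.478 with SB-3CT + IFN-γ; its part in the results was not tested. CXCL10, an IFN-γ-induced chemokine gene, was at most 0.050 FPKM in the 6 samples without IFN-γ and at least 78.7 in the 6 with it.

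Depth per sample, read from the steps of the lowest values, was between 87.2% and 150.1% of the mean of the controls; read numbers were not among the values used, and counting error is not stated. In bulk RNA, fewer cells of a kind and less RNA per cell cannot be told apart. The SB-3CT + IFN-γ samples also stood apart in scale: the median over genes of their FPKM relative to the 12-sample geometric mean was 0.865 to 0.874, against 0.987 to 1.09 elsewhere. On the deposited scale the median change from IFN-γ to SB-3CT + IFN-γ was therefore -0.20 (log2) among genes with a mean of at least 1 FPKM (called expressed below), against -0.03 for SB-3CT and -0.04 for IFN-γ over Control, and -0.21 for SB-3CT + IFN-γ over SB-3CT. Changes with the combination are read against these shifts.

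**Figure D1:**
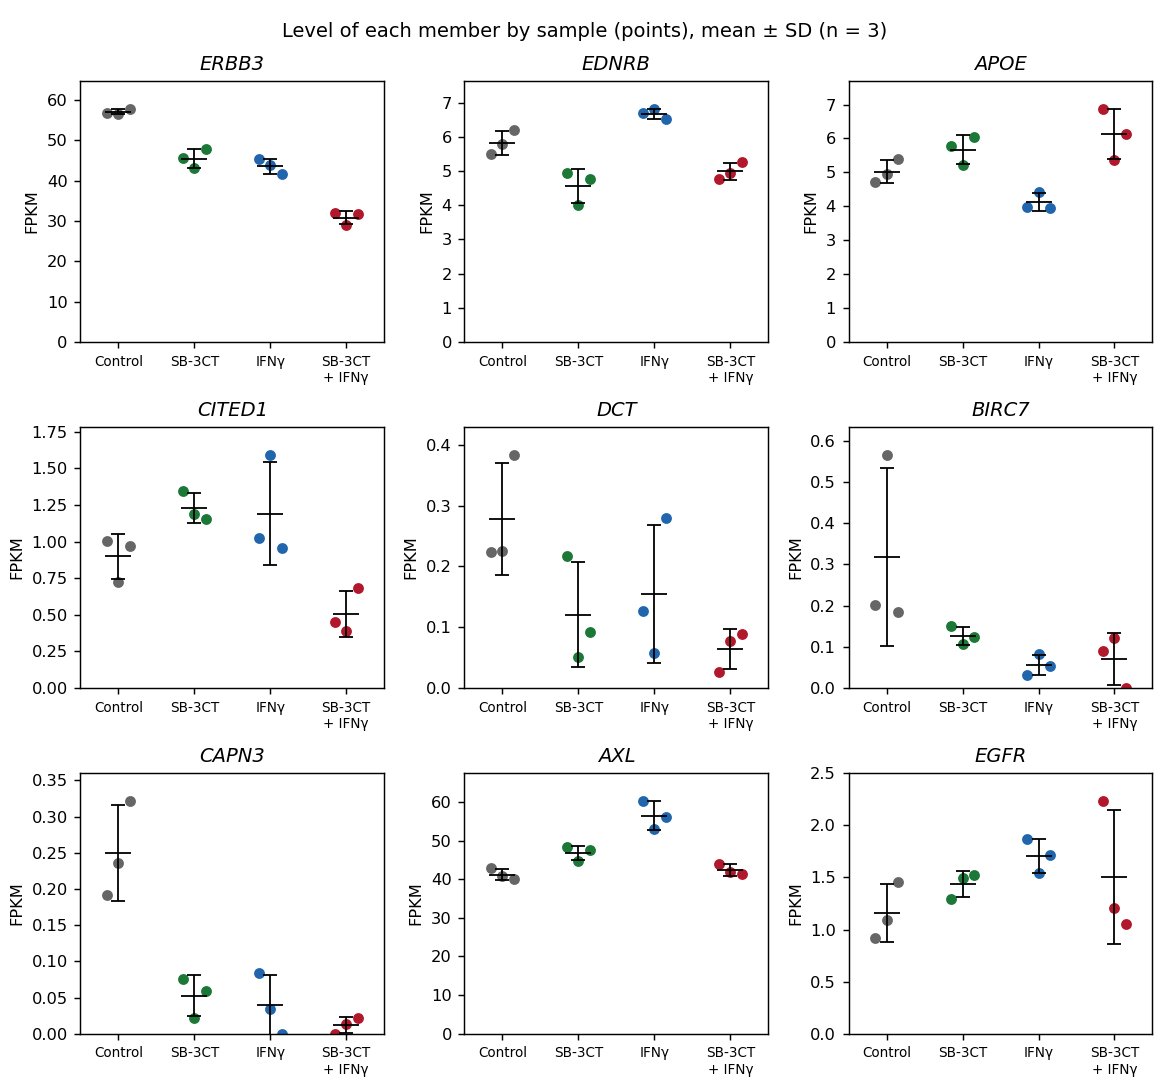
Level of each of the 9 genes in FPKM (vertical axes, each starting at 0) in the 4 groups; coloured points are samples and black bars the mean ± SD (n = 3; the bar of CAPN3 with IFN-γ is cut at 0). ERBB3 falls from 57.1 ± 0.640 in Control to 30.9 ± 1.62 with SB-3CT + IFN-γ, AXL peaks with IFN-γ at 56.4 ± 3.71, and DCT, BIRC7 and CAPN3 stay below 0.6 FPKM in every sample.

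ERBB3 was at 56.9, 56.6 and 57.8 FPKM in Control, 45.6, 43.1 and 47.9 with SB-3CT, 45.3, 43.8 and 41.6 with IFN-γ, and 31.9, 29.0 and 31.7 with SB-3CT + IFN-γ. The controls were higher than all treated samples, the 2 single treatments overlapped, and the combination was lower than every other sample. AXL, the receptor of the ligand GAS6, was at 42.8, 40.9 and 39.9 FPKM in Control, 48.2, 44.7 and 47.5 with SB-3CT, 60.3, 52.9 and 56.1 with IFN-γ, and 44.1, 41.8 and 41.2 with SB-3CT + IFN-γ. It was highest in the 3 IFN-γ samples, and the combination overlapped the controls.

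EDNRB was at 5.50, 5.80 and 6.19 FPKM in Control, 4.94, 3.996 and 4.77 with SB-3CT, 6.68, 6.81 and 6.52 with IFN-γ, and 4.76, 4.94 and 5.26 with SB-3CT + IFN-γ. Both groups with SB-3CT lay below both groups without it. APOE was at 4.73, 4.95 and 5.39 FPKM in Control, 5.77, 5.21 and 6.03 with SB-3CT, 3.98, 4.43 and 3.95 with IFN-γ, and 6.87, 5.38 and 6.14 with SB-3CT + IFN-γ. Its 3 IFN-γ samples were the lowest of the 12. CITED1 was at 1.01, 0.725 and 0.971 FPKM in Control, 1.35, 1.19 and 1.16 with SB-3CT, 1.03, 1.59 and 0.957 with IFN-γ, and 0.449, 0.386 and 0.682 with SB-3CT + IFN-γ. The 3 samples of the combination were below the other 9, which overlapped among themselves except that SB-3CT lay above Control.

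EGFR, the epidermal growth factor receptor, was at 0.914, 1.09 and 1.46 FPKM in Control, 1.29, 1.496 and 1.52 with SB-3CT, 1.87, 1.54 and 1.71 with IFN-γ, and 2.24, 1.21 and 1.06 with SB-3CT + IFN-γ. The IFN-γ samples lay above the controls, and replicate 1 of the combination was the highest of the 12 while the other 2 were within the range of the controls. CAPN3 was at 0.192, 0.236 and 0.322 FPKM in Control, 0.0761, 0.0212 and 0.0597 with SB-3CT, and 0.0838, 0.0341 and 0 with IFN-γ, and it was listed at 0, 0.0139 and 0.0213 with SB-3CT + IFN-γ. All 9 treated samples were below the 3 controls. BIRC7 ran from 0.185 to 0.567 FPKM in Control, 0.107 to 0.150 with SB-3CT, 0.0311 to 0.0818 with IFN-γ and 0 to 0.122 with the combination, and DCT from 0.224 to 0.384, 0.0509 to 0.218, 0.0572 to 0.280 and 0.0260 to 0.0888 in the same order. For BIRC7 the controls were above all treated samples; for DCT they overlapped the IFN-γ samples.

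The order of the 2 most abundant members turned over. In Control ERBB3 lay above AXL with no overlap, with SB-3CT their ranges overlapped, and in both IFN-γ groups AXL lay above ERBB3 with no overlap. The ratio of AXL to ERBB3 within a sample, which no scaling factor between samples can move, was 0.722 ± 0.0307 (SD, n = 3) in Control, 1.03 ± 0.0344 with SB-3CT, 1.295 ± 0.0758 with IFN-γ and 1.37 ± 0.0710 with SB-3CT + IFN-γ. All 9 treated samples were above the 3 controls, the 2 IFN-γ groups were above SB-3CT, and these 2 overlapped each other. With SB-3CT + IFN-γ the ratio stood near that of IFN-γ although both genes were lower, AXL at 0.751 and ERBB3 at 0.708 of their mean FPKM with IFN-γ. Lower in the order, EDNRB lay above APOE in Control and IFN-γ and below it in both groups with SB-3CT, each time without overlap, and EGFR and CITED1 overlapped in every group but the combination. BIRC7 and DCT overlapped in all 4 groups.

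**Figure D2:**
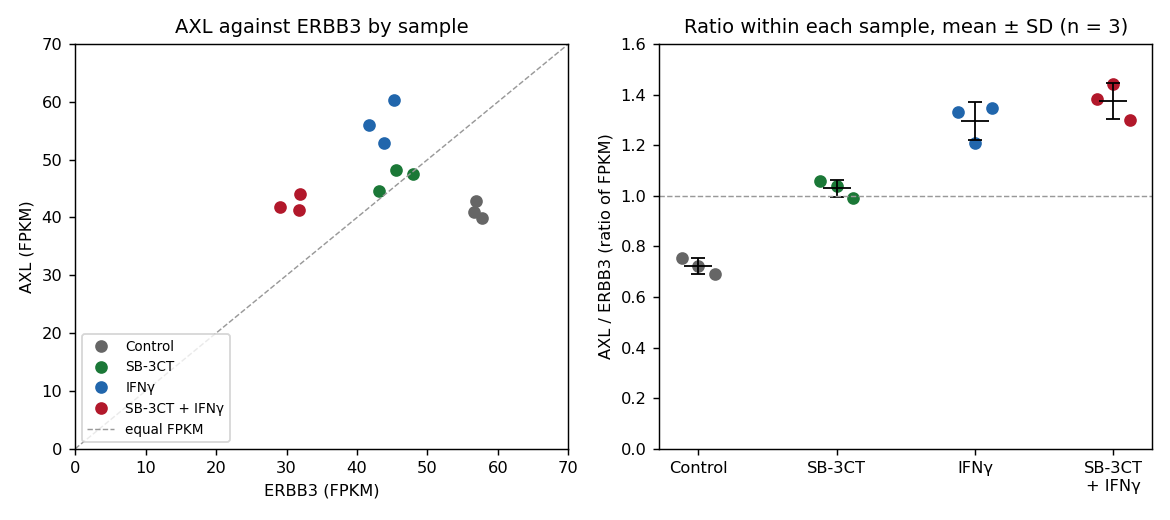
Left, AXL (vertical) against ERBB3 (horizontal) in FPKM for the 12 samples, with the line of equal FPKM dashed; right, the ratio of AXL to ERBB3 in each sample (points) with the mean ± SD (bars, n = 3) and a dashed line at a ratio of 1. The controls lie below the line of equality at a mean ratio of 0.722 and the 6 IFN-γ-treated samples above it, at 1.21 to 1.44.

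A summary over all 9 members, the mean log2(FPKM + 1) of the 7 lineage genes minus that of AXL and EGFR, was -1.36 ± 0.0320 (SD, n = 3) in Control, -1.67 ± 0.0692 with SB-3CT, -1.89 ± 0.118 with IFN-γ and -1.77 ± 0.203 with SB-3CT + IFN-γ. The controls were above all treated samples, SB-3CT was above IFN-γ, and the combination overlapped both. With only the 3 lineage genes of at least 1 FPKM (APOE, EDNRB and ERBB3) it was 0.49, 0.15, -0.05 and 0.10 in the same order.

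SB-3CT alone was compared with Control to ask what the inhibitor did in the absence of the cytokine. ERBB3 fell, by 0.32 on the log2(FPKM + 1) scale (SE 0.0472, adjusted p = 0.0110, limma with Benjamini-Hochberg adjustment over 4918 genes), and CAPN3 fell by 0.25 (SE 0.0445, adjusted p = 0.0198, limma). These were 2 of the 9 members, where 12.2% of all genes passed, 264 higher and 338 lower. On this scale changes of genes near 0 are understated: CAPN3 in SB-3CT was at 0.209 of its mean FPKM in Control, ERBB3 at 0.797. The other 7 members did not pass. EDNRB differed by -0.30 (95% interval -0.51 to -0.09, adjusted p = 0.0722, limma) and AXL by 0.18 (0.07 to 0.29, adjusted p = 0.0508, limma). AXL passed after scaling by the median ratio (0.22, adjusted p = 0.0250, limma). CITED1 (0.23), APOE (0.15), EGFR (0.18), DCT (-0.19) and BIRC7 (-0.21) had adjusted p-values from 0.102 to 0.289 in limma. The median change was -0.21 for the 7 lineage members and -0.01 for all genes. That -0.21 is the change of BIRC7, which did not pass and ran from -0.28 to -0.08 with a sample left out. The 12 other melanocyte-lineage genes counted below had a median of -0.02. Both calls were lost when a sample was left out: ERBB3 had an adjusted p-value in limma of 0.0555 to 0.0613 without any of the 3 controls, and CAPN3 of 0.0510 to 0.0882 in 5 of 6 such fits.

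IFN-γ alone was compared with Control to describe the cytokine response. AXL rose by 0.44 (SE 0.0582, adjusted p = 0.00404, limma) and ERBB3 fell by 0.38 (SE 0.0428, adjusted p = 0.00233, limma), so the abundant receptor kinase of the dedifferentiated state and the abundant lineage receptor moved in opposite directions. CAPN3 fell by 0.27 (SE 0.0483, adjusted p = 0.0132, limma). These are 3 of 9 members, beside 19.5% of all genes, and the comparison shares its controls with that of SB-3CT. In FPKM, AXL was at 1.37, ERBB3 at 0.764 and CAPN3 at 0.157 of their means in Control. AXL and ERBB3 passed under every alternative tried, and CAPN3, which a limit of 1 FPKM leaves out, under all the rest but the fit with the replicate number as a block and the one with each gene's own spread alone. EGFR differed by 0.34 (95% interval 0.08 to 0.60, adjusted p = 0.0768, limma) and passed after scaling by the median ratio (0.36, adjusted p = 0.0436, limma). APOE (-0.23, adjusted p = 0.0786), EDNRB (0.17, 0.112), BIRC7 (-0.31, 0.101), DCT (-0.15, 0.278) and CITED1 (0.20, 0.338) did not pass in limma. The lineage members' median was -0.23, which is the change of APOE, beside -0.02 for all genes.

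SB-3CT + IFN-γ was compared with IFN-γ to ask what the inhibitor did to cells that also received the cytokine. On the deposited scale 5 of 9 members passed, where 37.9% of all genes did, 315 higher and 1547 lower. APOE rose by 0.47 (SE 0.0987, adjusted p = 0.00880, limma), while ERBB3 fell by 0.48 (SE 0.0590, adjusted p = 0.00218, limma), CITED1 by 0.54 (SE 0.124, adjusted p = 0.0130, limma), AXL by 0.40 (SE 0.0613, adjusted p = 0.00320, limma) and EDNRB by 0.36 (SE 0.0710, adjusted p = 0.00735, limma). Lineage receptors and AXL were thus lower together. The 4 uncalled members were EGFR (-0.14, 95% interval -0.54 to 0.25), DCT (-0.11), CAPN3 (-0.04) and BIRC7 (0.02). EGFR rested on replicate 1 of the combination: without it the difference was -0.34 (adjusted p = 0.0401, limma).

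How far these falls exceed the general shift depended on the member. Scaling by the median ratio brought the median of expressed genes to 0.02 and left 811 genes higher and 760 lower. APOE then rose by 0.69 (adjusted p = 0.00474, limma), and ERBB3 (-0.24, adjusted p = 0.0248, limma) and AXL (-0.15, adjusted p = 0.0325, limma) still fell. EDNRB (-0.14, adjusted p = 0.173, limma) and CITED1 (-0.44, adjusted p = 0.0531, limma) no longer passed. When the dependence of each sample's values on transcript length was removed, APOE (0.39) and CITED1 (-0.62) passed, but ERBB3 (-0.10, adjusted p = 0.320, limma), AXL (-0.05, adjusted p = 0.476, limma) and EDNRB (-0.07, adjusted p = 0.569, limma) did not. The rise of APOE, whose canonical transcript of 1166 bases is among the shortest of the members, was the only call of this comparison that held under every alternative.

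**Figure D3:**
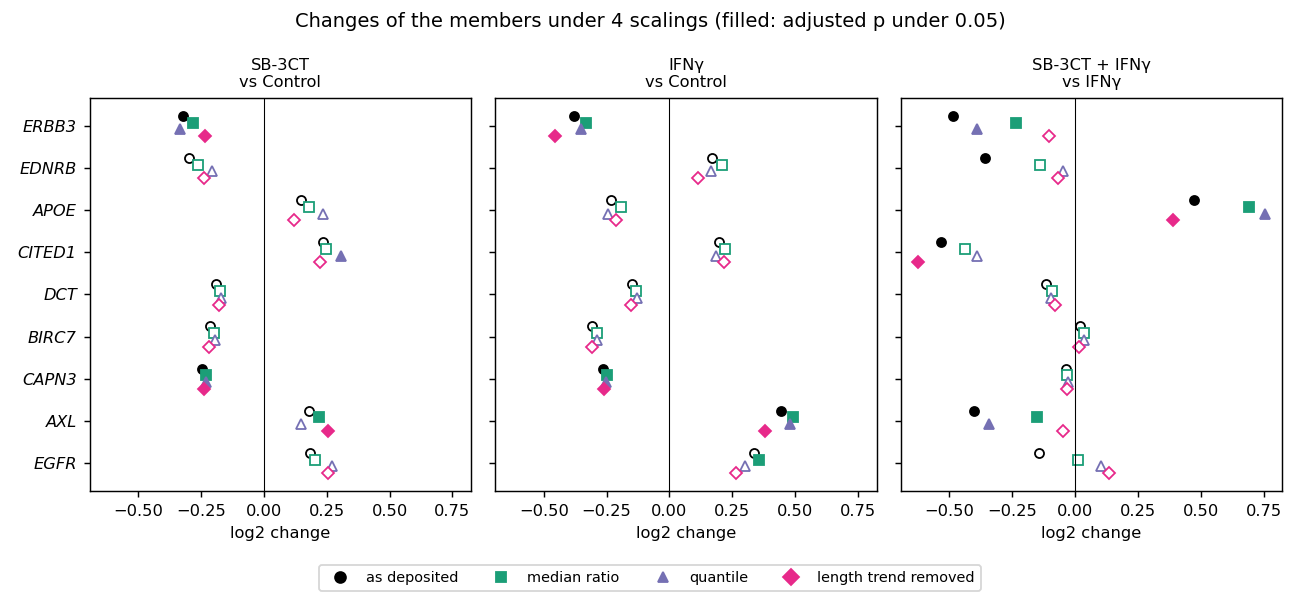
Log2 change of the 9 genes (horizontal axes) in 3 comparisons under 4 scalings of the samples (symbols); filled symbols have an adjusted p-value under 0.05 in limma. The sign of every member is the same under the 4 scalings for SB-3CT and for IFN-γ against Control, though AXL with SB-3CT runs from 0.15 to 0.26 and passes under 2 of them and EGFR with IFN-γ passes under 1, while for SB-3CT + IFN-γ against IFN-γ the change of ERBB3 runs from -0.48 to -0.10 and that of AXL from -0.40 to -0.05.

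IFN-γ was also examined in the presence of SB-3CT, by comparing SB-3CT + IFN-γ with SB-3CT. Here 3 of 9 members passed, all lower, beside 40.5% of all genes. ERBB3 fell by 0.54 (SE 0.0566, adjusted p = 0.00122, limma) and CITED1 by 0.57 (SE 0.0846, adjusted p = 0.00364, limma), and both passed under all 3 other scalings, at -0.29 to -0.41 for ERBB3 and -0.47 to -0.63 for CITED1. AXL fell by 0.14 (SE 0.0447, adjusted p = 0.0491, limma), but after scaling by the median ratio it differed by 0.12 (adjusted p = 0.0800, limma), so its direction is not settled. EDNRB differed by 0.11 (adjusted p = 0.369, limma) as deposited and rose by 0.33 (adjusted p = 0.0265, limma) after that scaling. APOE (0.09), EGFR (0.01), CAPN3 (-0.06), DCT (-0.07) and BIRC7 (-0.07) did not pass.

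Whether the SB-3CT change depended on IFN-γ was tested as a difference of changes over all 12 samples. It passed for 3 of 9 members, beside 22.3% of all genes. For AXL it was -0.58 (SE 0.0763, adjusted p = 0.00254, limma): AXL was 0.18 higher with SB-3CT in the absence of IFN-γ and 0.40 lower in its presence. For CITED1 it was -0.77 (SE 0.157, adjusted p = 0.00841, limma), with changes of 0.23 and -0.54. For CAPN3 it was 0.21 (SE 0.0573, adjusted p = 0.0246, limma), with changes of -0.25 and -0.04 from levels of 0.250 FPKM in Control and 0.0393 with IFN-γ; in FPKM the ratios were 0.209 and 0.298, and with a pseudocount of 0.1 the difference was 0.92 (adjusted p = 0.0668, limma). The differences of AXL and CITED1 passed under all 3 other scalings, from -0.49 to -0.31 for AXL and from -0.85 to -0.69 for CITED1. No such difference was found for ERBB3 (-0.16, 95% interval -0.32 to -0.0014, adjusted p = 0.136, limma) or EDNRB (-0.06, -0.30 to 0.18, adjusted p = 0.740, limma), whose signs turned under other scalings, and that of APOE was 0.33 (0.05 to 0.60, adjusted p = 0.0808, limma).

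**Figure D4:**
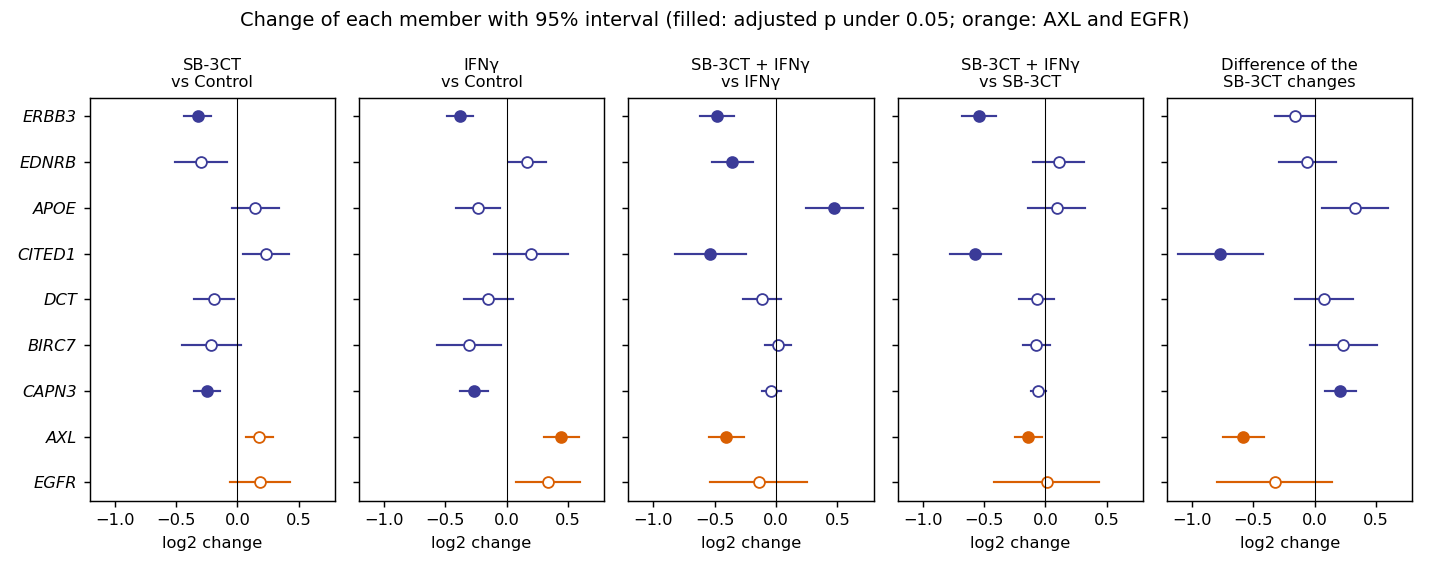
Log2 change of each of the 9 genes (points) with its unadjusted 95% interval (lines) in 4 comparisons and, at the right, the SB-3CT change with IFN-γ minus that without; filled points have an adjusted p-value under 0.05 in limma, and AXL and EGFR are in orange. AXL lies above 0 for IFN-γ (0.44) and below 0 for SB-3CT + IFN-γ against IFN-γ (-0.40), and ERBB3 is filled and below 0 in all 4 comparisons.

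Related genes were counted in hand-written lists. Of 12 other melanocyte-lineage genes, 3 rose and none fell with IFN-γ in limma (4 and 0 at an unadjusted p-value under 0.05), beside 8.46% and 11.02% of all genes: CEACAM1, an adhesion molecule, by 3.09, BCL2A1, a survival gene that interferon and NF-κB also induce, by 2.15, and ACP5, an acid phosphatase, by 0.27. The list's median was 0.00, and ERBB3, CAPN3 and these genes did not share a direction. With SB-3CT only CDK2, a cell cycle kinase, rose (0.51). With SB-3CT + IFN-γ against IFN-γ 4 fell, the largest change being that of CEACAM1 (-0.54). After scaling by the median ratio 3 rose and 2 fell, where 811 and 760 of all 4918 genes did. For the combination against SB-3CT 3 rose and 3 fell, and the difference of the SB-3CT changes was below 0 for 3. Of all genes, 5.37% were called higher and 6.87% lower with SB-3CT, and 6.41% and 31.5% with the combination against IFN-γ. Against SB-3CT 7.85% were called higher and 32.7% lower, and the difference was called below 0 for 17.6%.

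Of 15 other invasive-state genes, 5 rose and none fell with IFN-γ in limma (7 and 3 at an unadjusted p-value under 0.05, and, called, 7 and 1 under median-ratio scaling and 6 and 2 under quantile normalization or with the length trend removed), beside 8.46% and 11.02% of all genes. The 3 largest were the apoptosis inhibitor BIRC3 (0.72), the pyrimidine-degrading enzyme DPYD (0.54) and the secreted protein gene CRISPLD2 (0.53). With SB-3CT alone 1 rose and 3 fell, led by DPYD (-0.41) and N-cadherin, CDH2 (-0.33), beside 5.37% and 6.87% of all genes. With SB-3CT + IFN-γ against IFN-γ 12 fell and none rose in limma (13 and 0 at an unadjusted p-value under 0.05), beside 31.5% and 6.41% of all genes, with a median of -0.39 beside -0.20 for expressed genes. CRIM1 (-0.75), CDH2 (-0.70) and the kinase CDK14 (-0.65) changed most, and these 3 also passed under each other scaling. The number that fell was 8 after scaling by the median ratio, 7 after quantile normalization and 6 (with 1 higher) with the length trend removed. Of all 4918 genes, 760, 714 and 575 were called lower in the same order. For the combination against SB-3CT 1 rose (DPYD, 0.56) and 8 fell, beside 32.7% of all genes lower as deposited. The number that fell was 3 after scaling by the median ratio, 4 after quantile normalization and 5 with the length trend removed. Of all 4918 genes, 504, 834 and 946 were called lower in the same order. In limma the difference of the SB-3CT changes was below 0 for 8 of 15, beside 17.6% of all genes as deposited. After scaling by the median ratio it was below 0 for 2 of 15 and for 257 of all 4918 genes.

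**Figure D5:**
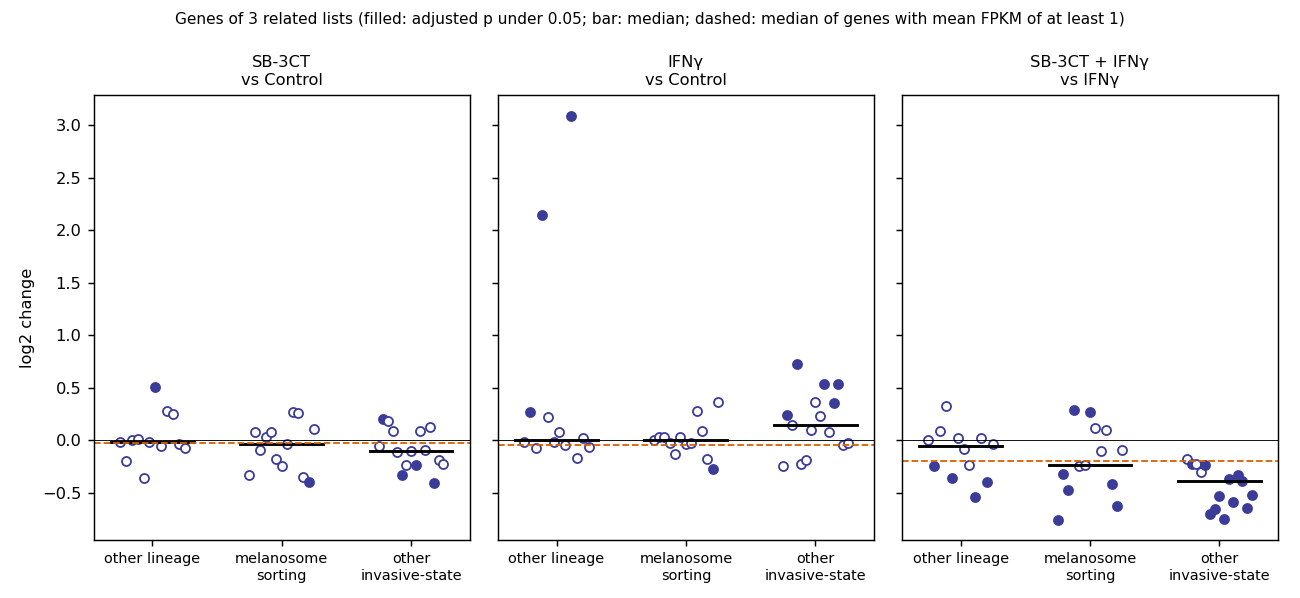
Log2 change (vertical axes) of each gene of 3 lists in 3 comparisons; filled points have an adjusted p-value under 0.05 in limma, black bars are the lists' medians and the dashed line is the median of genes with a mean of at least 1 FPKM. The other invasive-state genes have a median of 0.14 with IFN-γ and of -0.39 with SB-3CT + IFN-γ against IFN-γ, where 12 of 15 are filled and below 0.

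Melanosome sorting genes, which carry enzymes such as DCT to the pigment organelle, all had a mean of at least 1 FPKM over the 12 samples, though ATP7A was below it with SB-3CT (0.901) and with the combination (0.856). BLOC1S6, a subunit of the BLOC-1 complex, fell with SB-3CT (-0.39) and with IFN-γ (-0.27), as the only called gene of 13 in each. Of all genes, 12.2% were called with SB-3CT and 19.5% with IFN-γ. With SB-3CT + IFN-γ against IFN-γ 2 rose and 5 fell, led by the adaptor subunit AP3B1 (-0.76) and by BLOC1S6 (-0.62), against 3 and 2 after scaling by the median ratio and beside 6.41% and 31.5% of all genes. Against SB-3CT 3 rose and 5 fell (3 and 1), beside 7.85% and 32.7% of all genes. After scaling by the median ratio, 811 of all 4918 genes were called higher and 760 lower against IFN-γ, and 675 and 504 against SB-3CT. The difference of the SB-3CT changes was called for 2 in each direction, beside 4.74% of all genes above 0 and 17.6% below.

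Around ERBB3 and EGFR, 3 of 10 ligand, partner and feedback genes were called with IFN-γ, beside 19.5% of all genes. The ligand betacellulin, BTC, rose by 0.84 (SE 0.0909, adjusted p = 0.00196, limma), amphiregulin, AREG, fell by 0.71 (SE 0.103, adjusted p = 0.00609, limma) and the EGFR feedback inhibitor ERRFI1 rose by 0.44 (SE 0.0979, adjusted p = 0.0264, limma), while ERBB2, the partner of ERBB3, differed by -0.10. None passed with SB-3CT alone in limma, where 12.2% of all genes did, and 1 was lower at an unadjusted p-value under 0.05. With SB-3CT + IFN-γ against IFN-γ ERRFI1 (-0.73), the scaffold ERBB2IP (-0.72), the ubiquitin ligase CBL (-0.56) and ERBB2 (-0.33) fell; ERBB2 did not pass after scaling by the median ratio (-0.10) and ERRFI1 and ERBB2IP passed under all scalings. Against SB-3CT 1 rose, BTC (0.83), and 6 fell (3 after scaling by the median ratio, 4 under either other scaling), where 40.5% of all genes were called. Of all 4918 genes, 1608 were called lower as deposited, 504 by the median ratio, 834 by quantiles and 946 with the length trend removed. The difference of the SB-3CT changes was below 0 for ERRFI1 (-0.86) and CBL (-0.57). CBLB, the other ubiquitin ligase, differed by -0.33 against IFN-γ (adjusted p = 0.0969, limma). The ligand EREG and the receptor ERBB4 averaged 0.0198 and 0.00151 FPKM.

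Around EDNRB, the ligand genes EDN1, EDN2 and EDN3 averaged 0.0719, 0.134 and 0.00691 FPKM, and the converting enzymes that release the active peptides were expressed, ECE1 at 13.3 and ECE2 at 21.2. With SB-3CT + IFN-γ against IFN-γ ECE1 fell by 0.28 and ECE2 rose by 0.56, the rise alone holding under all 3 other scalings. ECE1 also fell against SB-3CT, by 0.47. EDNRA, the second endothelin receptor, rose with IFN-γ by 0.44 from a low level and by 0.38 in the presence of SB-3CT. None of the 6 genes passed with SB-3CT alone in limma, beside 12.2% of all genes, and 1 was higher at an unadjusted p-value under 0.05.

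In the APOE cluster and among sterol efflux genes, 4 of 6 were in the table. APOC1, the apolipoprotein gene beside APOE, differed by 0.29 with SB-3CT + IFN-γ against IFN-γ (adjusted p = 0.0556, limma) and rose by 0.76 against SB-3CT. The cholesterol exporter ABCA1 fell with SB-3CT (-0.49) and with IFN-γ (-0.44), and its fall of 0.19 with the combination against IFN-γ was lost after scaling by the median ratio (-0.09). ABCG1 fell with IFN-γ (-0.30), and CLPTM1, which lies in the cluster but is no lipid gene, fell against SB-3CT by 0.24 and differed by 0.02 after that scaling. ABCA1 and ABCG1 pass sterols to lipoprotein acceptors, APOE among them. Neither had a called rise in the 4 comparisons of groups, where only 5.37% to 8.46% of all genes had one.

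Relatives of BIRC7, CAPN3 and CITED1 were counted too. Of all genes, 5.37% were called higher and 6.87% lower with SB-3CT, and 8.46% and 11.02% with IFN-γ. With the combination these shares were 6.41% and 31.5% against IFN-γ, and 7.85% and 32.7% against SB-3CT. Of 4 other apoptosis inhibitor genes BIRC5 rose with SB-3CT (0.22) and BIRC3 with IFN-γ (0.72). BIRC6 (-0.60) and BIRC2 (-0.51) fell with the combination against IFN-γ. Of 7 other calpain genes CAPN1 rose with SB-3CT (0.22), and with IFN-γ CAPN15 rose (0.20) and CAPN5 fell (-0.29). With the combination against IFN-γ 1 rose and 3 fell, CAPN7 (from 8.30 to 5.59 FPKM) and CAPN2 (-0.47) most. Against SB-3CT 5 fell. After scaling by the median ratio 2 fell and 1 rose, where 504 of all 4918 genes were called lower and 675 higher. CITED2, like CITED1 a co-regulator that binds histone acetyltransferases, fell with the combination as CITED1 did, by 0.49 against IFN-γ and 0.91 against SB-3CT. Its difference of the SB-3CT changes was -0.70, and all 3 were also called under each other scaling. With IFN-γ alone CITED2 differed by -0.21 and CITED1 by 0.20, neither called as deposited. CITED4 rose with SB-3CT alone, by 0.45. It fell with the combination against SB-3CT, from 51.8 to 42.5 FPKM, a fall not called after scaling by the median ratio.

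The genes whose 12 values ran closest to ERBB3, AXL, EDNRB and APOE were sought among 3177 genes of at least 1 FPKM, as a description of samples that share groups and scale. ERBB3 ran with the collagen gene COL5A2 (Pearson r 0.983) and with CSPG4, a melanoma-associated proteoglycan (0.982), whose group means fell from 48.5 FPKM in Control to 41.9, 37.1 and 27.7 with SB-3CT, IFN-γ and both. AXL ran with BCOR (0.982), a transcriptional co-repressor gene, and ELMSAN1 (0.967), EDNRB with the complement factor gene CFI (0.956) and FAM111B (0.942), and APOE with CCNB1IP1 (0.920) and COA4 (0.906).

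On hg19, in GENCODE release 44, ERBB3 lies on chromosome 12 from 56470583 to 56497289 (28 exons) and AXL on chromosome 19 from 41725128 to 41767671 (20 exons); APOE is also on chromosome 19, from 45409048 to 45412650. EDNRB (78469616 to 78549664) and DCT (95089065 to 95131936) are on chromosome 13, EGFR on 7 (55086710 to 55279321), CAPN3 on 15 (42651696 to 42705147), BIRC7 on 20 (61867235 to 61871847) and CITED1 on X (71521488 to 71527037). Whether the libraries kept the strand is not given in the sources used here, so reads in the overlaps of EGFR with EGFR-AS1, CITED1 with PIN4, CAPN3 with ZNF106 and EDNRB with OBI1-AS1 cannot be told apart by strand. EGFR-AS1 was at most 0.0249 FPKM. Protein-coding models that share the strand also overlap ERBB3, CAPN3 and CITED1, so part of their reads may be uncertain.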

How the data were processed

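RNA of 12 A375 samples was sequenced by the authors in paired reads of 150 bases. Per the submitters' processing notes and the study's methods, reads were aligned to hg19 with HISAT2 2.0.5 and quantified as FPKM with StringTie 1.3.3. The values the authors deposited fit log2(FPKM + 1) with no further scaling stated. The planned tests assumed FPKM; as the values were logarithms already, none were taken, and FPKM was recovered as 2 to the power of the value minus 1. Each sample was placed in its group by its title, and 0 columns of values were left unused. Only the symbols from A1BG to FAM46B were analysed here.

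The 3 + 3 samples of each comparison were fitted with limma 3.58.1 in R 4.3.3 (eBayes with a variance trend, unpaired, no filter on low values), and p-values were adjusted over all 4918 genes; a gene was called at an adjusted p-value under 0.05. The smallest p that exact permutation of 3 + 3 samples allows is 0.1. The replicate numbers did not pair the samples: same-numbered samples did not deviate together. The text names the 9 members, the 2 genes most like each member of at least 1 FPKM (those of EGFR are not reported here), up to 3 called genes of each list and the expressed genes of the ERBB, endothelin and APOE lists; other genes named were chosen after their values were seen. Members and lists were chosen with earlier results of these data known, and lists were written by hand. Positions came from GENCODE release 44 lifted to GRCh37 (4458 symbols matched directly, 415 through an older symbol), promoters from RefSeq. The alternatives were a pseudocount of 0.1, a mean of at least 1 FPKM, scaling by the median ratio, quantile normalization, removal of the trend with transcript length, other variance estimates, all groups in one fit, the replicate block, and each sample left out.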

Additional observations from a re-analysis of the deposited data

Results flagged for a closer look

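In 3 members, AXL, CITED1 and CAPN3, the SB-3CT change differed between cells with and without IFN-γ, by the test of the difference itself over 12 samples. The difference was -0.58 (log2) for AXL (adjusted p = 0.00254, limma; 0.18 without IFN-γ and -0.40 with it), -0.77 for CITED1 (adjusted p = 0.00841, limma; 0.23 and -0.54) and 0.21 for CAPN3 (adjusted p = 0.0246, limma; -0.25 and -0.04). In 22.3% of all genes this difference passed, and its median among expressed genes was -0.19. For AXL it was -0.31 at its smallest among the alternatives, and it passed under each of them. The AXL change of 0.18 was not called as deposited, and that of -0.40 was -0.05 and not called with the length trend removed. CAPN3 was at 0.209 of its FPKM with SB-3CT alone and at 0.298 with SB-3CT + IFN-γ against IFN-γ, from 0.250 and 0.0393 FPKM, and its difference on the log2(FPKM + 1) scale is not one of fold changes. With a pseudocount of 0.1 it was 0.92 and no longer passed (adjusted p = 0.0668, limma), and it did not pass without replicate 2 of SB-3CT, replicate 3 of IFN-γ or replicate 3 of SB-3CT + IFN-γ (0.0518, 0.0610 and 0.0544).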

How the results depend on the processing

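Of the 45 results of members in 5 comparisons, 21 kept their direction and their side of the threshold under every alternative, 18 changed side and 6 changed direction at least once. The number of called genes moved most as follows. For SB-3CT against Control it was 602, 84 with each gene's own spread alone and 73 to 912 with a sample left out; the replicate block gave 259, and since the numbers pair no samples, a call lost under it is not a weaker effect. For IFN-γ against Control it was 958, 602 with each gene's own spread and 562 to 982 with a sample left out. For SB-3CT + IFN-γ against IFN-γ it was 1862, 976 with the length trend removed (401 higher, 575 lower) and 1230 to 1977 with a sample left out. For SB-3CT + IFN-γ against SB-3CT it was 1994, 1179 after scaling by the median ratio (675 higher, 504 lower) and 1507 to 1780. For the difference of the SB-3CT changes it was 1099, 459 with the length trend removed, 640 after quantile normalization, 641 after scaling by the median ratio and 678 to 1450. The lineage genes minus AXL and EGFR, against Control, were -0.31 for SB-3CT, -0.53 for IFN-γ and -0.40 for both, -0.66, -0.99 and -0.98 with a pseudocount of 0.1, and -0.35 to -0.28, -0.59 to -0.48 and -0.49 to -0.29 with a sample left out. Directions turned for EGFR in the combination against IFN-γ (0.013 by the median ratio, 0.10 by quantiles, 0.14 by length) and against SB-3CT (-0.00705 with a pseudocount of 0.1, -0.03 without SB-3CT replicate 1, -0.19 without replicate 1 of the combination), for AXL against SB-3CT (0.12 by the median ratio, 0.073 by length), for BIRC7 against IFN-γ (0.02, or -0.015 to 0.068 with a sample left out, lowest without replicate 2 of the combination), and in the difference of changes for EDNRB (0.12, 0.16 and 0.17 by the median ratio, quantiles and length) and ERBB3 (0.045 and 0.13 by the median ratio and length). The block ended the calls of CAPN3 with IFN-γ (adjusted p = 0.0542, limma) and of AXL in the combination against SB-3CT (0.0857). The cause of these changes was not tested. Depth limits what can be said of DCT, BIRC7 and CAPN3, all under 0.6 FPKM.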
